A study of Mus musculus with 15 samples.

Results

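The genes described here encode the high-affinity IgE receptor FceRI, its first kinases, and the proteins that make and store histamine: Fcer1a, Ms4a2, Fcer1g, Syk, Lyn, Hdc and Slc18a2. They were taken by name from the deposited expression table, where 6 of the 7 were found among 21110 gene rows. Syk was not analysed here. All 6 genes were among the 14257 that reached 1 FPKM or more in at least 2 libraries and were tested. FPKM counts sequenced fragments relative to transcript length and to the size of the library, so levels of different genes can be set side by side per length. The values are rounded to whole numbers and keep no read depth, so precision rests on the spread between libraries.

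The libraries were 15 in number, made from cells sorted from the lungs of C57BL6/J mice, and fell into 8 groups. Naive mice gave basophils, eosinophils and natural helper cells, which are also called group 2 innate lymphoid cells. Mice given 50 ug of papain, a plant protease used as an airway allergen, into the nose over 3 days gave basophils, CD11c- eosinophils, CD11c+ eosinophils and natural helper cells. These 7 groups had 2 libraries each. An eighth group was a single library of natural helper cells from papain mice labelled 3'UTRKO. The labels do not name the gene that this allele alters, and nothing was tested in it. The age of the mice, and whether several were pooled for a library, are not given in the sources used here. The p-values below therefore measure only the spread between these libraries. That spread was estimated per gene over all groups together, so a standard error is not the spread within the 2 groups compared. For Fcer1a and Ms4a2 it includes eosinophil libraries at 0 or 1 FPKM and natural helper cell libraries at 0. Basophils were gated as FceR1+ CD49b+ c-kit- cells, so the receptor whose alpha chain Fcer1a encodes was itself a sorting criterion. Ms4a2 encodes another chain of the same receptor. The levels of Fcer1a and Ms4a2 in basophils against other cells are for that reason given as a check of the sort and not as a finding.

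FceRI is built from an alpha chain (Fcer1a) that binds IgE, a beta chain (Ms4a2) that amplifies the signal, and a pair of gamma chains (Fcer1g) that carry the signalling motifs. When an allergen crosslinks bound IgE, the Src family kinase Lyn phosphorylates the beta and gamma chains, and the kinase Syk then docks on them and sets off calcium entry, degranulation and cytokine synthesis. Histamine is made from histidine by histidine decarboxylase (Hdc) and is pumped into secretory granules by the vesicular monoamine transporter VMAT2 (Slc18a2). Basophils and mast cells are known for carrying the complete receptor and for releasing histamine, while Fcer1g also serves IgG receptors and C-type lectins of other myeloid cells.

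The labels were checked against marker genes. The basophil protease Mcpt8 stood at 824 and 252 FPKM in naive basophils and at 30 and 95 FPKM in papain basophils, against 0 to 2 FPKM elsewhere. Eosinophil libraries held Ccr3 at 124 to 229 FPKM. Other eosinophil markers differed between naive eosinophil libraries 1 and 2, with Prg2 at 86 and 1519 FPKM and Ear6 at 91 and 333 FPKM. Siglec5 did not, at 63 and 66 FPKM. The summed eosinophil markers were 520 and 2730 FPKM in these 2 libraries. The eosinophil peroxidase gene Epx, a defining marker, was listed at 0 in 4 of the 6 eosinophil libraries. Summed markers of neutrophils reached 6477 to 16565 FPKM in those 6 libraries. Natural helper cells held Gata3 at 168 to 273 FPKM. FPKM summed to between 374841 and 570208 in a library. The median absolute log2 difference between replicates was highest in papain basophils, at 0.585, and lowest in papain natural helper cells, at 0.138.

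Stretches of promoter are shown first because 3 of the genes, Fcer1a, Ms4a2 and Slc18a2, followed each other closely across the libraries. A window of 300 bases, 250 before and 50 after the transcription start, was available for 5 of the 6 genes in RefSeq (GRCm38.p6). Lyn had no entry. The letters of 4 motifs were searched on both strands. Those of GATA family factors, AGATAA and TGATAA, occurred in 18.6% of 32851 such windows and in those of the 3 genes. Each stretch is written 5′ to 3′ on the gene's strand with the matching letters, or their complement, in capitals.
Fcer1a, chr1:173227306-173227331, minus strand: aaccctattaTTATCTctggagaaag
Ms4a2, chr19:11623928-11623953, minus strand: ctgctctcttTTATCTtctcatttcc
Ms4a2, chr19:11623741-11623766, minus strand: gcctggagacTTATCTgacaagtagg
Ms4a2, chr19:11623715-11623740, minus strand: ttccgcatgaAGATAAtcattggtat
Slc18a2, chr19:59260638-59260663, plus strand: ttggccttgaTTATCTtcaggacctt
The Fcer1a match began at position -92 from the start. The 3 matches of Ms4a2 began at -224, -37 and -11, and that of Slc18a2 at -230. The windows of Hdc and Fcer1g held none of these letters. Of the other motifs, the C/EBP letters TTGCNNAA (10.8% of all windows) occurred in Fcer1a, the RUNX letters TGTGGT (16.8%) in Fcer1a and Fcer1g, and the STAT letters TTCNNNGAA (8.3%) in none of the 5 windows. A match describes the sequence and not binding. Gata2, the GATA factor gene known for basophils and mast cells, stood at 664 and 845 FPKM in naive basophils. It was at 82 and 378 FPKM in papain basophils, a difference that missed the threshold (limma adjusted p = 0.0546), and at 0 to 6 FPKM elsewhere. Gata3, of the same family, stood at 168 to 273 FPKM in natural helper cells, where Fcer1a and Ms4a2 were listed at 0. The part of either factor was not tested.

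In naive lungs the receptor's own alpha and beta chains were found in basophils and were near 0 elsewhere. Fcer1a, the IgE-binding chain, stood at 141 and 194 FPKM in the naive basophil libraries. It was listed at 0 or 1 FPKM in the eosinophil libraries and at 0 in every natural helper cell library. Ms4a2, the beta chain, stood at 47 and 50 FPKM in naive basophils and at 0 or 1 FPKM in the 11 libraries of other cells. Naive basophils exceeded naive eosinophils in Ms4a2 by 5.13 ± 0.29 (SE) on the log2(FPKM + 1) scale (limma with Benjamini-Hochberg adjustment over all genes tested, adjusted p = 2.63e-05). This scale understates differences against values near 0. The same difference against naive natural helper cells was 5.63 ± 0.29 (limma adjusted p = 8.82e-06). Both differences are a check of the sort, since the basophils were gated on the receptor that holds this chain.

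Fcer1g, the signalling chain, was shared by basophils and eosinophils and low in natural helper cells. Naive basophils had 581 and 563 FPKM, naive eosinophils 850 and 853 FPKM, and naive natural helper cells 22 and 10 FPKM. Neutrophils also carry Fcer1g, and their summed markers were 16565 and 8883 FPKM in the naive eosinophil libraries. The part of neutrophils in the eosinophil level of Fcer1g was not tested. The basophil and eosinophil libraries did not overlap, but their difference of -0.57 ± 0.51 (SE, log2) did not pass the test (limma adjusted p = 0.576). It passed with these 2 groups fitted alone (adjusted p = 0.0329), the lowest of 9 alternatives that reached 0.846. Mean Fcer1g was 35.8 times higher in naive basophils than in naive natural helper cells (log2 difference 5.17 ± 0.51, limma adjusted p = 0.000273). The order of group means was naive eosinophils, CD11c+ eosinophils, papain basophils, CD11c- eosinophils and naive basophils, followed by the natural helper cell groups. Neighbours overlapped in that order down to CD11c- eosinophils, whose libraries lay above those of naive basophils.

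Lyn, the kinase that starts the signal, was highest in naive eosinophils. Its levels were 107 and 150 FPKM there, 60 and 43 FPKM in naive basophils, and 16 and 28 FPKM in naive natural helper cells. Neutrophils also carry Lyn, and their summed markers were 16565 and 8883 FPKM in naive eosinophil libraries 1 and 2. The part of neutrophils in the Lyn level was not tested. Naive basophils were lower than naive eosinophils by 1.30 ± 0.27 (SE, log2; limma adjusted p = 0.0140). They were higher than naive natural helper cells by 1.22 ± 0.27 (limma adjusted p = 0.0150). Both calls were lost with the compared groups fitted alone and when single libraries were left out. For the first, the libraries were naive basophil library 2 or naive eosinophil library 2, and for the second naive basophil library 1 or naive natural helper library 1, with adjusted p up to 0.117 and 0.164 over 9 alternatives each.

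Hdc was the most abundant of the 6 genes in naive basophils, at 2955 and 3199 FPKM. Naive eosinophils had 716 and 360 FPKM, and naive natural helper cells 6 and 9 FPKM. Mean Hdc was thus 5.72 times higher in basophils than in eosinophils (log2 difference 2.60 ± 0.57 SE, limma adjusted p = 0.0167). That call was lost without either naive basophil library, without naive eosinophil library 2 and with these 2 groups fitted alone (adjusted p = 0.0756), with adjusted p between 0.00977 and 0.115 over 9 alternatives. Hdc was higher in basophils than in natural helper cells by 8.52 ± 0.57 (limma adjusted p = 3.15e-05). In naive eosinophils the summed neutrophil markers were higher in the library with more Hdc, at 16565 FPKM in library 1 and 8883 FPKM in library 2. Most of each sum was Retnlg, at 13759 and 7600 FPKM. S100a8, S100a9, Csf3r and Cxcr2 moved the same way, while Ngp (2 and 119 FPKM) and Mpo (0 and 17 FPKM) moved the other way. Summed eosinophil markers were lower in the library with more Hdc, at 520 FPKM in library 1 and 2730 FPKM in library 2. The part of neutrophils, or of this difference, in the eosinophil level of Hdc was not tested.

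Slc18a2, the granule transporter, separated basophils from eosinophils more sharply than Hdc in group means. Its levels were 905 and 687 FPKM in naive basophils, 24 and 26 FPKM in naive eosinophils, and 10 and 11 FPKM in naive natural helper cells. The mean in naive basophils was 31.8 times that of naive eosinophils (log2 difference 4.92 ± 0.25 SE, limma adjusted p = 2.02e-05) and 75.8 times that of naive natural helper cells (6.10 ± 0.25, limma adjusted p = 5.21e-06). The Hdc to Slc18a2 ratio, a ratio of FPKM levels within a library, was 3.27 and 4.66 in naive basophils. It ranged from 13.9 to 44.2 in the 6 eosinophil libraries and from 0.6 to 0.875 in the natural helper cell libraries. The ratios of the 3 cell types did not overlap when naive libraries were compared.

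Between naive basophils and naive eosinophils, 4 of the 6 genes were higher and 1 lower in basophils, where 5.30% of all genes tested were higher and 8.66% lower. Against naive natural helper cells, 6 of 6 were higher in basophils, where 6.96% of all genes were higher. Naive eosinophils exceeded naive natural helper cells in 4 of 6 genes, where 11.6% of all genes were higher. These were Fcer1g, Lyn, Hdc and Slc18a2, the last by 1.18 ± 0.25 (SE, log2; limma adjusted p = 0.00793). The counts for basophils include Fcer1a and Ms4a2, which encode chains of the receptor that the gate selected.

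**Figure D1:**
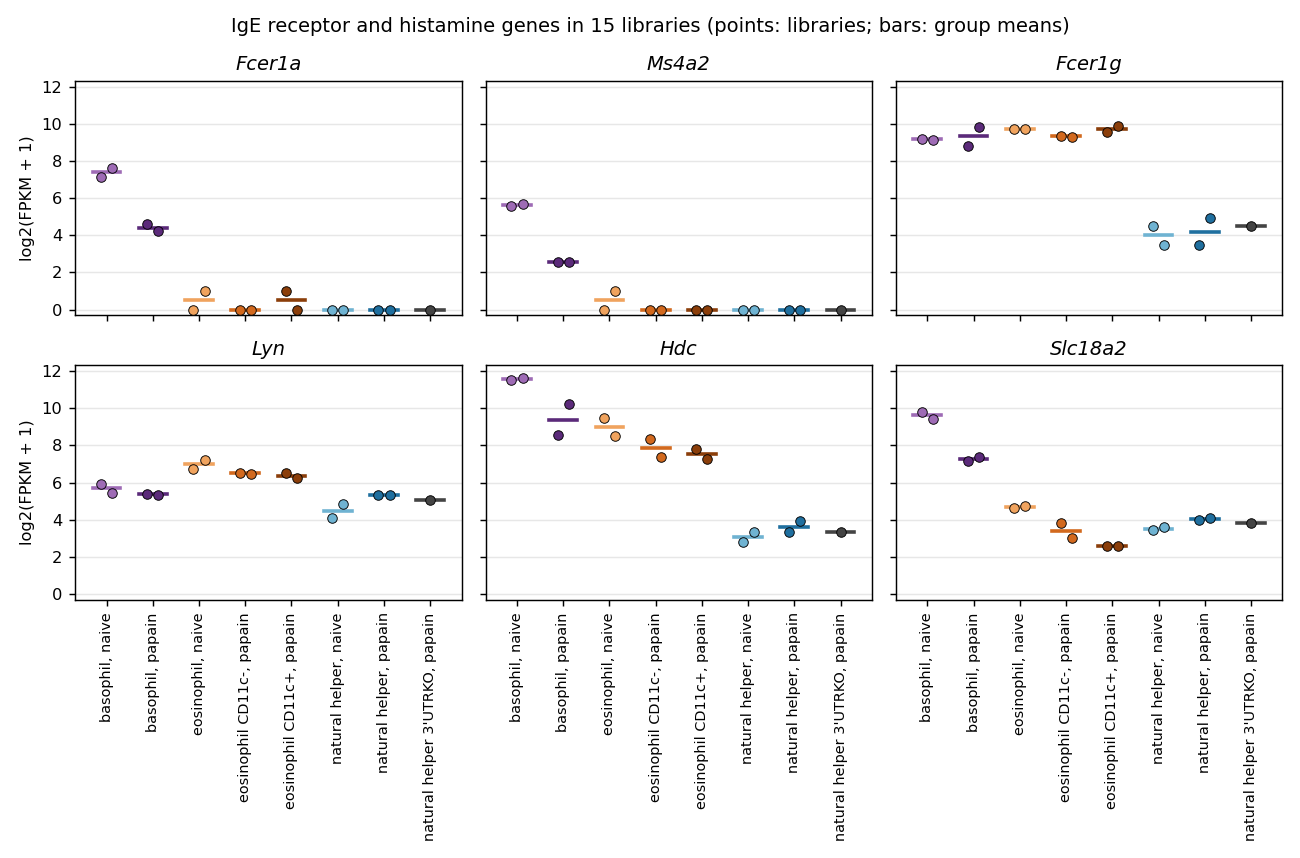
FPKM of the 6 genes in each of the 15 libraries, on a log2(FPKM + 1) axis, by sorted group; each point is a library. Fcer1a and Ms4a2 stand above 1 FPKM in the 4 basophil libraries alone, Fcer1g and Lyn are spread over basophils and eosinophils, and Hdc is high in naive basophils and intermediate in eosinophils.

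After papain, basophils held less mRNA of both receptor chains specific to FceRI and of both histamine genes, while the shared gamma chain and Lyn did not pass the test. Of the 6 genes, 4 were lower and 0 higher, where 3.88% of all genes tested were lower and 22.1% higher. The median log2 difference was -2.28 over the 6 genes and 0.50 over all genes. In sorted bulk libraries, fewer cells of a type and less RNA per cell cannot be told apart.

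Fcer1a was at 23 and 18 FPKM in papain basophils. Both values lay below the lower naive library, at 141 FPKM, and the naive mean was 8.17 times the papain mean. The log2 difference, papain minus naive, was -2.96 ± 0.41 (SE, limma adjusted p = 0.00177). Ms4a2 was at 5 FPKM in both papain libraries, and its naive mean was 9.7 times higher (log2 difference -3.04 ± 0.29, limma adjusted p = 0.000453). Both genes passed in 9 of 9 alternative settings, with adjusted p up to 0.0471 for Fcer1a and 0.0155 for Ms4a2. The alpha and beta chains fell by similar factors. Their FPKM ratio within a library was 3 and 3.88 in naive basophils and 4.6 and 3.6 in papain basophils, ranges that overlapped.

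Fcer1g stood at 446 and 911 FPKM in papain basophils, on either side of the naive values. Its log2 difference was 0.16 ± 0.51 (SE, limma adjusted p = 0.888). With median-ratio scaling of the libraries, this difference became -0.35 and did not pass either. The Fcer1g to Fcer1a ratio was 4.12 and 2.90 in naive basophils and 19.4 and 50.6 in papain basophils, without overlap. Lyn stood at 41 and 40 FPKM, just below the naive libraries (log2 difference -0.32 ± 0.27, limma adjusted p = 0.425).

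Hdc was at 375 and 1188 FPKM in papain basophils. The naive mean was 3.94 times higher (log2 difference -2.20 ± 0.57 SE, limma adjusted p = 0.0232). The 2 papain libraries differed more than 3-fold from each other, and this call was the least stable of the 4. It was lost without naive library 1 (adjusted p = 0.0620), naive library 2 (0.111) or papain library 1 (0.102, log2 difference -1.37), and with the 4 basophil libraries fitted alone (0.199), in a range of 0.0106 to 0.199 over 9 alternatives. Slc18a2 was at 142 and 163 FPKM, with a naive mean 5.22 times higher (log2 difference -2.37 ± 0.25, limma adjusted p = 0.000579). Fitted to the 4 basophil libraries alone, its adjusted p was 0.0511, the highest of 9 alternatives that began at 0.000340. Hdc and Slc18a2 kept an overlapping ratio, 3.27 and 4.66 in naive against 2.64 and 7.29 in papain libraries.

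**Figure D2:**
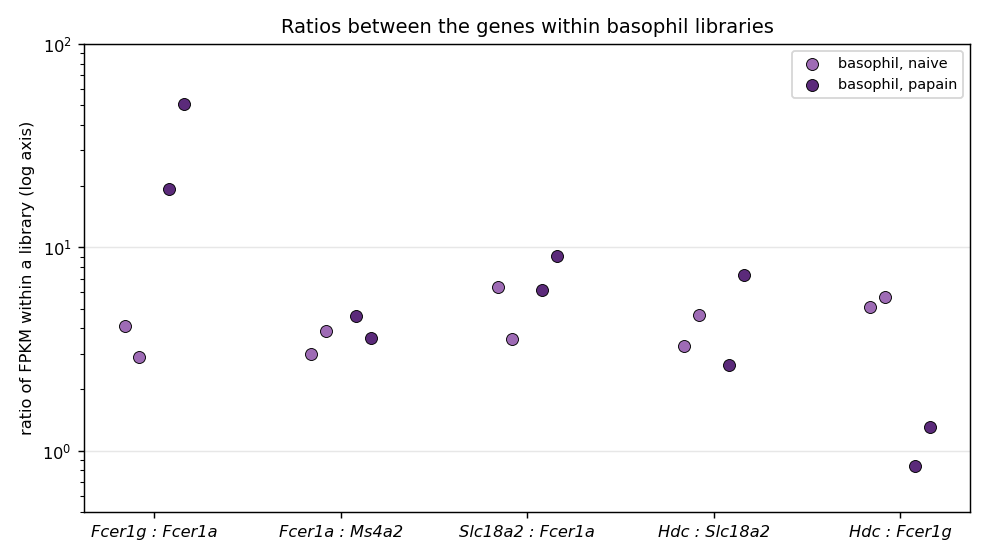
Ratios of FPKM between pairs of genes within each of the 4 basophil libraries, on a log axis; each point is a library. The Fcer1g to Fcer1a ratio separates naive (2.90 and 4.12) from papain libraries (19.4 and 50.6), while the Fcer1a to Ms4a2 ratio stays between 3 and 4.6.

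Markers of basophils and of other cells moved with these falls. Among 9 basophil markers, 5 were lower and 0 higher after papain (3.88% and 22.1% of all genes tested), with a median log2 difference of -2.34. The count was 1 without papain library 1 and 7 without papain library 2, and 2 and 3 without naive libraries 1 and 2. Their summed level was 5225 and 4072 FPKM in naive and 697 and 1677 FPKM in papain basophils. The 7 fibroblast markers were 7 of 7 higher (median 5.35), and their sum was 52 and 5 FPKM in naive against 4052 and 1571 FPKM in papain basophils. With the 4 basophil libraries fitted alone, 0 of the 7 passed at the same median. Epithelial markers were higher for 6 of 9, from sums of 6629 and 8713 FPKM to 20381 and 34335 FPKM. Most of each sum was Scgb1a1, at 6363 and 8531 FPKM in naive and 19550 and 32382 FPKM in papain basophils. Scgb1a1 itself did not pass (limma adjusted p = 0.312). Neutrophil markers, of cells that also carry Fcer1g and Lyn, were higher for 3 of 7, where 22.1% of all genes were higher. Their sums went from 280 and 536 FPKM to 3207 and 7280 FPKM. Alveolar macrophage markers were higher for 3 of 8 (22.1% of all genes), from sums of 64 and 43 FPKM to 11690 and 282 FPKM. Chi3l3, which did not pass (limma adjusted p = 0.0936), gave 10500 FPKM of the sum in papain library 1. The part of these other cells in the results for the 6 genes was not tested.

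Mast cells carry the same receptor and the same histamine genes, and the gate removed cells with surface c-kit. Of 6 mast cell markers tested, 2 were lower after papain, where 3.88% of all genes were lower. The sum of the 7 in the table was 573 and 589 FPKM in naive and 200 and 13 FPKM in papain basophils. The mast cell proteases Tpsb2, Cma1 and Mcpt4 stood at 89, 90 and 105 FPKM in naive library 1 and at 101, 94 and 153 FPKM in naive library 2. They were at 51, 51 and 45 FPKM in papain library 1 and at 0 in papain library 2. In the 2 papain libraries Fcer1a was at 23 and 18 FPKM, Ms4a2 at 5 FPKM in both and Hdc at 375 and 1188 FPKM. The part of mast cells in these levels was not tested.

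Downstream of the receptor, the 20 genes of the FceRI signalling list divided, with 6 lower and 3 higher after papain (26.0% of all genes passed in either direction) and a median log2 difference of -0.61. With median-ratio scaling 10 were lower and 1 higher. Tec, a kinase gene of this list, went from 237 and 203 FPKM in naive to 41 and 106 FPKM in papain basophils (-1.72 ± 0.39 SE, limma adjusted p = 0.0146). The adaptor gene Sh3bp2 was higher, from 5 and 2 FPKM to 15 and 11 FPKM (1.71 ± 0.44, limma adjusted p = 0.0226). Tec lost its call without either naive library, and Sh3bp2 without naive library 2 or either papain library, with adjusted p up to 0.208 and 0.168 over 9 alternatives. The 12 inhibitors of FceRI signalling that were tested gave 3 higher and 0 lower (22.1% and 3.88% of all genes), but 1 higher and 3 lower with median-ratio scaling, so that the direction of this list depended on the scaling. Among them was Cd300lf, an inhibitory receptor, at 9 and 3 FPKM in naive and 47 and 95 FPKM in papain basophils (3.42 ± 0.56, limma adjusted p = 0.00399). Naive eosinophils held Cd300lf at 458 and 509 FPKM.

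Receptors that borrow the Fcer1g chain gave 2 higher and 0 lower of 7 tested, near the 22.1% of all genes that were higher. Clec4n, which encodes the fungal lectin receptor Dectin-2, was at 10 and 5 FPKM in naive and 349 and 119 FPKM in papain basophils (4.66 ± 0.74 SE, limma adjusted p = 0.00355). Fcgr4, an IgG receptor, was at 7 and 4 FPKM in naive and 24 and 22 FPKM in papain libraries (1.92 ± 0.47, limma adjusted p = 0.0195). Both are also genes of macrophages and neutrophils, whose markers moved in the same direction. Fcgr4 lost its call without naive library 2 or either papain library (adjusted p up to 0.127 over 9 alternatives). The other IgE-binding proteins moved in opposite directions. Lgals3 (galectin-3) was higher, from 193 and 137 FPKM to 662 and 466 FPKM (limma adjusted p = 0.00992). The part of macrophages, whose markers rose in the same libraries, was not tested. Fcer2a (CD23, the low-affinity IgE receptor of B cells) was lower, from 6 and 7 FPKM to 2 and 1 FPKM (limma adjusted p = 0.0330). These are low values, rounded to whole numbers. Of 8 B cell markers, a list that includes Fcer2a, 3 were lower, where 3.88% of all genes were lower. Lgals3 lost its call without naive library 2, and Fcer2a without either naive library or papain library 2, with adjusted p up to 0.120 and 0.149 over 9 alternatives.

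Of the 6 tested genes for histamine receptors, transport and breakdown, 2 were lower and 1 higher, where 3.88% of all genes were lower and 22.1% higher. Slc22a3, a transporter that takes up histamine, went from 6 and 4 FPKM to 1 and 2 FPKM (-1.27 ± 0.22 SE, limma adjusted p = 0.00488). The histamine receptor gene Hrh4, chosen after its values were seen, went from 4 and 5 FPKM to 1 and 0 FPKM (limma adjusted p = 0.00651). The gene that rose, Aldh7a1, encodes an aldehyde dehydrogenase and was at 1 and 0 FPKM in naive and 4 and 6 FPKM in papain basophils. All of these calls rest on rounded values of 6 FPKM or less. In simulated data, false calls above the threshold's share were mostly among genes of low values. Among 14 tested genes of granule storage and exocytosis, 4 were higher and 2 lower (22.1% and 3.88% of all genes), and 3 each with median-ratio scaling. Rab27a, which tethers granules at the membrane, fell by 1.92 ± 0.42 (log2; limma adjusted p = 0.0125), from 21 and 25 FPKM to 9 and 3 FPKM. Vamp8, a membrane fusion protein of granules, rose from 49 and 28 FPKM to 119 and 132 FPKM (limma adjusted p = 0.00317). Hrh4, Aldh7a1 and Rab27a lost their calls without naive library 2 (adjusted p up to 0.142, 0.145 and 0.183 over 9 alternatives). When the 4 basophil libraries were fitted alone, the listed genes named so far for basophils missed the threshold.

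**Figure D3:**
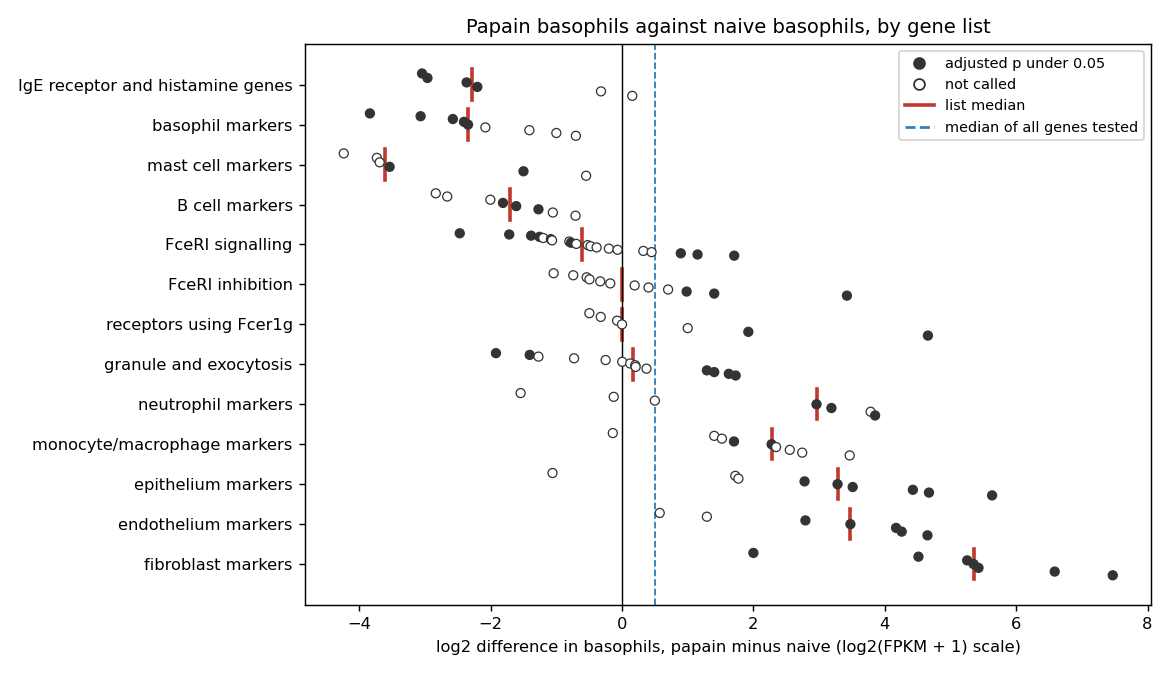
Log2 difference, papain minus naive basophils on the log2(FPKM + 1) scale, of each tested gene of the named pathway and marker lists on the vertical axis; each point is a gene, filled points passed the limma test, red ticks are list medians and the dashed line is the median of all genes (0.50). The 4 FceRI and histamine genes that fell lie between -2.20 and -3.04, near the basophil markers (median -2.34), while the fibroblast markers lie far above 0 (median 5.35).

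In eosinophils, Slc18a2 was the member that passed after papain. It stood at 24 and 26 FPKM in naive eosinophils, at 13 and 7 FPKM in CD11c- and at 5 FPKM in both CD11c+ libraries from papain mice. The 3 groups did not overlap. For CD11c- cells, 1 of 6 genes was lower, where 0.372% of all genes were lower, and the log2 difference was -1.30 ± 0.25 (SE, limma adjusted p = 0.0362). That call was lost without naive library 1, naive library 2 or CD11c- library 2, and with the replicate number as a block, with adjusted p from 0.0215 to 0.201 over 9 alternatives. For CD11c+ cells, 1 of 6 genes was lower, where 2.20% of all genes were lower. The difference was -2.11 ± 0.25 (limma adjusted p = 0.00196) and passed in 9 of 9 alternatives. Summed basophil markers were 462 and 512 FPKM in naive, 489 and 480 FPKM in CD11c- and 335 and 397 FPKM in CD11c+ eosinophils. Most of each sum came from Ccl9 and Csf2rb2, at 243 and 175 FPKM in naive library 1, so the sums do not measure basophil content. Mcpt8 was at 0 and 2 FPKM in naive eosinophils and at 0 in both papain gates, and Prss34 was at 0 in all of them. The 7 fibroblast markers were 7 of 7 higher in the CD11c+ gate and 6 of 7 in the CD11c- gate (fewer without single libraries). Of 14257 genes tested, 1730 passed for CD11c+ cells, 81.8% of them higher. For CD11c- cells 320 passed, 83.4% of them higher. The fibroblast markers summed to 7 and 25 FPKM in naive eosinophils, 917 and 1159 FPKM in CD11c- cells and 2370 and 2480 FPKM in CD11c+ cells. Their part in the Slc18a2 result was not tested.

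Hdc had lower values in both papain gates but did not pass. CD11c- libraries had 319 and 165 FPKM and CD11c+ libraries 221 and 155 FPKM, all below the naive 716 and 360 FPKM. The log2 differences were -1.14 ± 0.57 (SE, limma adjusted p = 0.419) and -1.45 ± 0.57 (limma adjusted p = 0.128). Summed neutrophil markers were 9171 and 6477 FPKM in CD11c- and 12362 and 14230 FPKM in CD11c+ libraries. Fcer1g was at 660 and 619 FPKM in CD11c- and 758 and 941 FPKM in CD11c+ libraries (log2 differences from naive -0.41 ± 0.51 and -0.01 ± 0.51). Lyn was at 92 and 86 FPKM and at 89 and 75 FPKM (log2 differences -0.51 ± 0.27 and -0.63 ± 0.27), and none of these passed. Between the 2 gates, 0 of 6 genes passed limma's adjusted test, where 0.0561% of all genes did. At an unadjusted p under 0.05 the count was 1 of 6. That gene was Slc18a2, at -0.82 ± 0.25 (CD11c+ minus CD11c-, limma adjusted p = 0.479).

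In CD11c+ eosinophils, 2 of the 20 genes of the signalling list were higher and 2 lower against naive eosinophils (12.1% of all genes passed in either direction), and 2 and 7 with median-ratio scaling. Lat, the adaptor that links the receptor to calcium entry, was at 0 in both naive and at 12 and 25 FPKM in the CD11c+ libraries (4.20 ± 0.75 SE, limma adjusted p = 0.0102). Gab2, an adaptor on the Fyn branch of the signal, was at 32 and 18 FPKM in naive and 8 and 5 FPKM in CD11c+ cells (-1.77 ± 0.42, limma adjusted p = 0.0297). Both calls were lost without either naive library or CD11c+ library 2, with adjusted p up to 0.0726 for Lat and 0.196 for Gab2 over 9 alternatives. Summed T cell markers, of cells that carry Lat, were 1 FPKM in each naive and 71 FPKM in each CD11c+ library. The inhibitory receptor gene Cd200r1 rose in both gates, from 3 and 6 FPKM to 28 and 33 FPKM in CD11c- cells (2.57 ± 0.28, limma adjusted p = 0.00361) and to 35 and 41 FPKM in CD11c+ cells (2.88 ± 0.28, limma adjusted p = 0.00105).

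In natural helper cells, 0 of 6 genes passed limma's adjusted test after papain, where 0.786% of all genes did. At an unadjusted p under 0.05 the count was 1 of 6, and that gene was Lyn. It stood at 16 and 28 FPKM in naive and at 40 and 39 FPKM in papain libraries, without overlap (log2 difference 0.87 ± 0.27 SE, limma adjusted p = 0.256). Slc18a2 was at 10 and 11 FPKM in naive and 15 and 16 FPKM in papain libraries, also without overlap (0.52 ± 0.25, limma adjusted p = 0.507). Hdc was at 9 and 14 FPKM and Fcer1g at 10 and 29 FPKM after papain, both overlapping the naive libraries. The log2 difference of Fcer1g was 0.19 ± 0.51, or -0.08 with median-ratio scaling. Fcer1a and Ms4a2 were listed at 0 in all 4 libraries. In the single 3'UTRKO library, Fcer1g (22 FPKM) and Hdc (9 FPKM) lay within the range of the papain libraries, while Lyn (33 FPKM) and Slc18a2 (13 FPKM) lay below it. Alveolar macrophage markers summed to 91 and 16 FPKM in naive and 105 and 922 FPKM in papain natural helper cells. Their part in the next result was not tested. Among the listed genes, Lgals3 rose, from 28 and 13 FPKM in naive to 71 and 115 FPKM in papain natural helper cells (2.18 ± 0.36, limma adjusted p = 0.0310). This call was lost without naive library 2 or either papain library (adjusted p up to 0.284 over 9 alternatives).

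**Figure D4:**
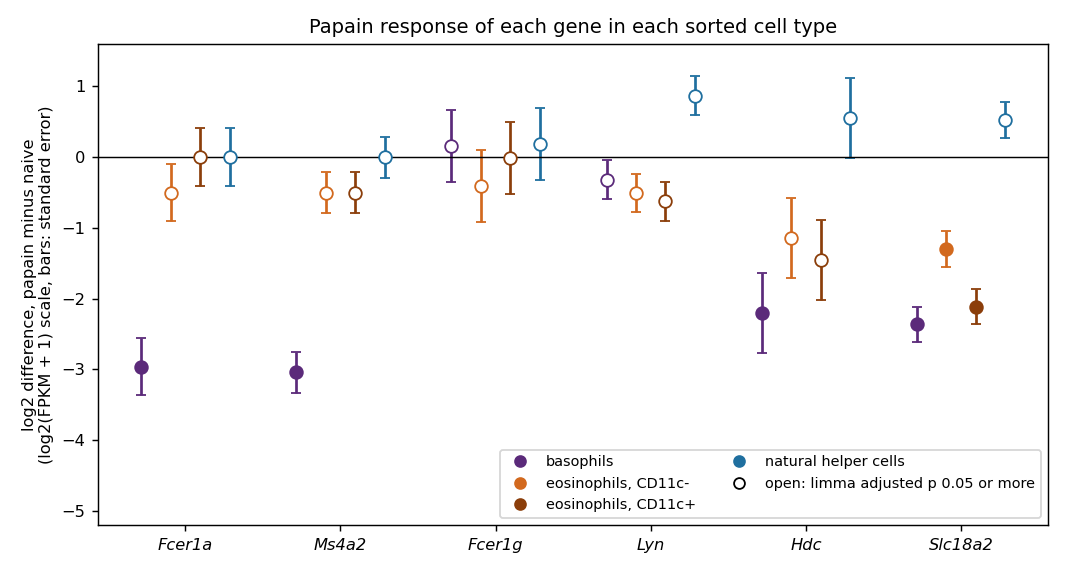
Log2 difference, papain minus naive, of each gene in basophils, in both eosinophil gates and in natural helper cells, on the log2(FPKM + 1) scale; bars are standard errors, and filled points passed the limma test. Fcer1a, Ms4a2, Hdc and Slc18a2 lie at -2.20 or below in basophils, and Slc18a2 passes in both eosinophil gates.

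The difference between papain responses was tested directly. Basophils against natural helper cells gave 3 of 6 genes with a lower response in basophils, where 2.12% of all genes had one. Slc18a2 differed by -2.89 ± 0.36 (SE, log2; limma adjusted p = 0.00468). Ms4a2 differed by -3.04 ± 0.41 (limma adjusted p = 0.00543) and Fcer1a by -2.96 ± 0.58 (limma adjusted p = 0.0196), but both were at 0 in natural helper cells, where no fall could be seen. The Fcer1a call was lost at a pseudocount of 0.5, without naive basophil library 2 and without any 1 of the 4 natural helper cell libraries, with adjusted p from 0.00984 to 0.0802 over 13 alternatives. Hdc differed by -2.75 ± 0.80 and did not pass (limma adjusted p = 0.0812).

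Against CD11c- eosinophils, 1 of 6 genes had a lower response in basophils, where 0.751% of all genes had one. Ms4a2 differed by -2.54 ± 0.41 (SE, log2; limma adjusted p = 0.0173), again with values of 0 or 1 FPKM in eosinophils. This call was lost without naive basophil library 2 (adjusted p = 0.0731), CD11c- library 1 (0.0637) or CD11c- library 2 (0.0726), in a range of 0.0167 to 0.100 over 13 alternatives. Slc18a2 fell in both cell types, and the difference between the falls, -1.07 ± 0.36, did not pass (limma adjusted p = 0.175). That of Hdc was -1.06 ± 0.80 (limma adjusted p = 0.565).

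After papain, basophils were compared with papain natural helper cells and with papain CD11c- eosinophils. The counts of higher genes in both comparisons include Fcer1a and Ms4a2, which encode chains of the receptor that the basophil gate selected. Against papain natural helper cells, 5 of 6 were higher, where 12.6% of all genes were higher. Ms4a2 was higher by 2.58 ± 0.29 (SE, log2; limma adjusted p = 0.000751), Fcer1g by 5.14 ± 0.51 (0.000446), Hdc by 5.77 ± 0.57 (0.000446) and Slc18a2 by 3.21 ± 0.25 (0.000228). With these 2 groups fitted alone, Fcer1g (adjusted p = 0.0827) and Hdc (0.0711) missed the threshold, each at the highest of 9 alternatives. Lyn, at 41 and 40 FPKM against 40 and 39 FPKM, differed by 0.04 ± 0.27 (limma adjusted p = 0.990). Against papain CD11c- eosinophils, 3 were higher and 1 lower, where 6.52% of all genes were higher and 4.87% lower. Slc18a2 was higher by 3.86 ± 0.25 (limma adjusted p = 0.000202) and Lyn lower by 1.12 ± 0.27 (limma adjusted p = 0.0356). The Lyn call was lost with the replicate number as a block and without any 1 of the 4 libraries, and that of Slc18a2 with the 2 groups fitted alone (adjusted p up to 0.1435 and 0.0597 over 9 alternatives each). Hdc, at 375 and 1188 FPKM against 319 and 165 FPKM, did not overlap but did not pass, at 1.54 ± 0.57 (limma adjusted p = 0.114, and from 0.0234 to 0.4755 over 9 alternatives). It passed without papain basophil library 1 (adjusted p = 0.0234). Fcer1g, at 446 and 911 FPKM against 660 and 619 FPKM, overlapped.

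Likeness across the 15 libraries was described by Pearson's r of log2(FPKM + 1). The libraries share cell types and replicates, so r carries no test. Fcer1a followed Ms4a2 (r = 0.987), and Slc18a2 followed both (r = 0.955 and 0.964). Fcer1g followed Hdc (r = 0.884) and Lyn (r = 0.736), while Fcer1a and Lyn had r = -0.08. Hdc lay between, with r = 0.729 to Fcer1a, 0.717 to Ms4a2, 0.686 to Slc18a2 and 0.547 to Lyn. Among 8747 candidate genes, those most like Fcer1a were Ptgfr (r = 0.987), Mcpt8 (0.980) and Unc93a (0.976). Ptgfr, the prostaglandin F receptor, was at 30 and 21 FPKM in naive basophils, at 5 and 4 FPKM in papain basophils and at 0 in the other 11 libraries. It was also among the 3 nearest to Ms4a2 and Slc18a2, with Rab38 (0.988) and Slc22a3 (0.979) for the former and Defb40 (0.974) and Mcpt8 (0.969) for the latter.

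Genes nearest to Fcer1g were Cd9 (r = 0.990), Fcgr3 (0.990) and Clec4e (0.985). The products of Fcgr3, an IgG receptor, and Clec4e, the lectin Mincle, both signal through the Fcer1g chain. Fcgr3 was at 285 and 172 FPKM in naive and 181 and 244 FPKM in papain basophils, so like Fcer1g its libraries overlapped there. Nearest to Hdc were Irg1 (0.986), Ifitm2 (0.984) and Ifitm1 (0.977). Irg1, the enzyme that makes itaconate in myeloid cells, stood at 2431 and 1819 FPKM in naive and at 273 and 865 FPKM in papain basophils, with the lower papain value in the same library as that of Hdc. Nearest to Lyn were Myh9 (0.948), Gpr35 (0.946) and Tes (0.944), which like Lyn were highest in naive eosinophils.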

How the data were processed

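RNA from sorted lung cells was poly(A)-selected and sequenced, per the labels' protocols. Per the submitters' processing notes, the tools were TopHat 1.4.0 and Cufflinks 1.3.0 and the genome build was mm9. The deposited table holds a score per gene and library, read here from its values and the tools as FPKM that the authors rounded to whole numbers. The annotation, filters and rounding are not stated. Read depth is unknown, so no counting interval is given. All 15 columns were assigned from the labels, and 0 per-sample columns were left unused. Commas were removed from 1008 cells, 3 cells next to 0 were set to 0, and 5521 rows were 0 everywhere.

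Genes at 1 FPKM or more in at least 2 libraries were tested as log2(FPKM + 1) in limma 3.58.1 (R 4.3.3), with a coefficient per group over all 15 libraries (7 residual degrees of freedom), a trended eBayes step, two-sided p-values and a Benjamini-Hochberg threshold of 0.05 over all genes tested. There were 12 comparisons. The 6 kinds of alternative were a pseudocount of 0.5, no filter, median-ratio scaling, the compared groups alone, the replicate number as a block and each library left out. The script was tested on simulated data, where false calls exceeded the threshold's share, mostly among genes of low values. The members and the 8 pathway and 14 marker lists were chosen with earlier results of these data known. Named genes were the members, up to 3 called genes per pathway list and comparison with the largest difference (no overlap between groups, and a mean of at least 5 FPKM in one of them), the 3 genes most like each member, and markers where a result moved with them. Some genes that this rule selects are not reported here. Counts of listed genes were also recomputed under these alternatives. Promoter letters came from RefSeq (GRCm38.p6), a build other than the files' mm9, and no position was carried between them.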

Additional observations from a re-analysis of the deposited data

Results flagged for a closer look

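The papain response differed between cell types for 3 of the genes by the interaction term in limma. Basophils against natural helper cells gave a log2 difference of -2.962 for Fcer1a, -3.044 for Ms4a2 and -2.888 for Slc18a2. Basophils against CD11c- eosinophils gave -2.544 for Ms4a2. For Fcer1a and Ms4a2 the other cell types stood at 0 or 1 FPKM before papain, so these values restate the fall in basophils. Slc18a2 was measured above 0 in every library, and its response to papain was a fall of 2.37 in basophils (log2 -2.37) against a difference of 0.52 in natural helper cells.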

How the results depend on the processing

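Over the alternatives, 563 member values kept their side of the threshold, 39 lost it, 4 gained it and none changed direction among those called. Fitting the compared groups alone gave 1714 called genes for naive basophils against natural helper cells (2935 as reported), 490 for papain against naive basophils (3705), 542 for natural helper cells (112), 1114 for CD11c- (320) and 1038 for CD11c+ eosinophils (1730), 5 between gates (8), 887 and 487 for papain basophils against natural helper cells (2813) and CD11c- eosinophils (1624), and 570 for the response difference from natural helper cells (963). It called 2 members in basophils (4 as reported), 0 in CD11c- eosinophils (1), 3 between papain basophils and natural helper cells (5) and 0 for the response difference from eosinophils (1), where a pseudocount of 0.5 also called 0. Median-ratio scaling called 52 genes in natural helper cells, 1 between gates and 207 (336) for the response difference from eosinophils. Between gates, a pseudocount of 0.5 called 14 and no filter 13.

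The share of calls that were higher moved with that scaling from 37.9% to 54.5% (naive basophils against eosinophils), 33.8% to 50.9% (against natural helper cells), 85.1% to 65.5% (papain basophils), 68.8% to 38.5% (natural helper cells), 83.4% to 72.9% (CD11c-), 81.8% to 56.7% (CD11c+), 50% to 100% (between gates) and 68.2% to 39.1% (response difference from eosinophils). The median over all genes of the basophil response moved from 0.50 to 0.16. The replicate block called 0 members in CD11c- eosinophils and 2 genes between gates. Replicate numbers are only numbers in the labels, and deviations of same-numbered libraries correlated by -0.153 to 0.116.

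Leaving out single libraries gave these ranges of called genes and members, in the order of the comparisons: naive basophils against eosinophils 929 to 1819 and 3 to 5; against natural helper cells 1363 to 2701 and 5 to 6; naive eosinophils against natural helper cells 2419 to 2809 and 4 to 5. Papain responses gave 1228 to 3513 and 3 to 4 in basophils, 52 to 126 and 0 in natural helper cells, 44 to 161 and 0 to 1 in CD11c-, 371 to 2070 and 1 in CD11c+ eosinophils, and 2 to 498 and 0 between gates. Papain basophils gave 698 to 3773 and 5 against natural helper cells, and 469 to 2525 and 3 to 4 against CD11c- eosinophils. Response differences gave 288 to 1691 and 2 to 4 from natural helper cells, and 20 to 930 and 0 to 1 from eosinophils. An arm left with 1 library was assumed to vary like the others. The cause of these changes was not tested.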

Other observations

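Kinases related to Lyn divided by cell type. In naive eosinophils Fgr stood at 258 and 198 FPKM, against 6 and 2 FPKM in naive basophils (limma adjusted p = 0.000332). Summed neutrophil markers were 16565 and 8883 FPKM in these eosinophil libraries, and the part of neutrophils in this Fgr level was not tested. Zap70, the T cell kinase related to Syk, was at 61 and 76 FPKM in naive natural helper cells and at 4 and 0 FPKM in naive basophils (limma adjusted p = 0.00730). Summed T cell markers were 218 and 228 FPKM in these natural helper cell libraries and 56 and 2 FPKM in naive basophils. The part of T cells in the Zap70 level was not tested. In papain basophils, 3 of the 8 kinases of this list were higher and 0 lower, where 22.1% of all genes were higher, among them Fgr at 18 and 20 FPKM (limma adjusted p = 0.0240), beside the neutrophil and macrophage markers that rose in the same libraries. This call was lost without naive library 2 or either papain library (adjusted p up to 0.163 over 9 alternatives). Zap70 missed the threshold without naive basophil library 2 (adjusted p up to 0.0868).

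Relatives of Ms4a2 in the MS4A family had other patterns. Ms4a6d went from 9 and 1 FPKM in naive to 60 and 29 FPKM in papain basophils (limma adjusted p = 0.0323, up to 0.214 over 9 alternatives, and lost without naive library 2 or either papain library), and Ms4a4d from 0 in both to 8 and 3 FPKM (limma adjusted p = 0.00473). Ms4a4d was also higher in CD11c+ eosinophils, at 9 and 14 FPKM against 0 in both naive libraries (limma adjusted p = 0.00214). Serglycin (Srgn), the proteoglycan core that holds histamine and proteases in granules, was lower in papain basophils, at 1955 and 2532 FPKM against 5777 and 6010 FPKM (limma adjusted p = 0.00425). It was chosen after its values were seen.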
